A study of Mus musculus with 6 samples.

Results

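The 10 genes described here encode the transforming growth factor beta (TGF-beta) ligands (Tgfb1, Tgfb2 and Tgfb3), the receptors that bind them (Tgfbr1, Tgfbr2 and Tgfbr3) and the latent TGF-beta binding proteins (Ltbp1, Ltbp2, Ltbp3 and Ltbp4). They were selected by gene name from the 54929 rows of the deposited count table, and all 10 were among the 14807 genes that passed the filter on low counts. Messenger RNA was sequenced from the left ventricle of wild-type (WT) C57BL/6 mice that had undergone transverse aortic constriction (TAC), an operation in which the aortic arch is narrowed so that the ventricle pumps against a raised pressure. One group of 3 libraries came from mice given an anti-IgG control antibody and the other group of 3 from mice given an anti-PD-1 antibody; PD-1 restrains the activation of T cells. The dose of either antibody was 10 mg/kg, given into the peritoneum every 3 days from day 14 after surgery, and all 6 libraries carry the time label of 5 weeks. Every mouse thus had the same genotype, strain and surgery, and no library without TAC was part of the comparison. The labels do not say whether the 3 libraries of a group came from separate animals, so p-values rest on the spread between libraries alone, which may be technical. They give neither the age nor the sex of the mice.

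TGF-beta is secreted as a latent complex, in which the mature growth factor stays wrapped in its own propeptide, the latency-associated peptide. In many cells this complex is linked to a latent TGF-beta binding protein, which anchors it to fibrillin and fibronectin in the extracellular matrix until integrins, proteases or thrombospondin release the ligand. The free ligand binds the type II receptor (Tgfbr2), which recruits and phosphorylates the type I receptor (Tgfbr1), and the kinase of the type I receptor then phosphorylates the transcription factors SMAD2 and SMAD3. In the pressure-overloaded heart the pathway is best known for turning fibroblasts into matrix-producing myofibroblasts.

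The 3 ligands differ in a stretch of the latency-associated peptide that integrins of the alpha-v family grip to release the growth factor. The coding bases of that stretch are shown because they set Tgfb2 apart from Tgfb1 and Tgfb3. Tgfb2 was the ligand called higher with anti-PD-1 in the main analysis, a call missed in 14 of 22 alternative fits. Capitals mark the 3 codons of the integrin-binding site arginine-glycine-aspartate in Tgfb1 (chr7:25697133-25697159, mm10, plus strand, codon 244 onward) and Tgfb3 (chr12:86062156-86062182, minus strand, codon 261 onward). For Tgfb2 they mark the codons that stand opposite the Tgfb3 site in an alignment of the coding sequences (chr1:186630744-186630770, minus strand).
Tgfb1: cccaaacgtCGGGGCGACctgggcacc
Tgfb3: gaccatggcCGTGGAGACctggggcgt
Tgfb2: acatatgccAGTGGTGATcagaaaact
The coding sequence of Tgfb2 held 0 in-frame runs of codons for this site, and those of Tgfb1 and Tgfb3 held 1 each. Over the whole coding sequence the ligands shared 63.3% to 67.5% of their aligned bases, with Tgfb1 and Tgfb3 the closest pair.

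The tissue label was checked against marker genes before the members were compared. All 8 ventricular cardiomyocyte markers were detected, with a summed level of 19467 to 38363 CPM (reads scaled to library size, with TMM factors), and 4 of them differed between the groups: the myosin light chain Myl2 (-1.87 on the log2 scale) and the troponins Tnnt2 (-1.22) and Tnni3 (-1.35) were lower with anti-PD-1, and the calcium release channel Ryr2 (1.39) was higher (edgeR adjusted p = 0.0138, 0.0225, 0.0155 and 0.00644). Of the 4 atrial markers, Sln had 0 reads in all 6 libraries, Myl7 0 to 2 and Myl4 9 to 44, while the natriuretic peptide gene Nppa, which a loaded ventricle also expresses, had 2367 to 14681. Libraries held 18063344 to 21093163 counted reads, of which the 10 members took 0.0969% to 0.161%. The lowest member count in any library was 331 reads, for Tgfbr3 in anti-IgG library 3 (95% exact Poisson interval 296.3 to 368.65, counting error only). In a bulk library, fewer cells of a type and less RNA per cell cannot be told apart.

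With anti-PD-1, transcripts of 1 ligand, Tgfb2, and 1 receptor, Tgfbr1, were higher, and 0 of the 10 members were lower past the threshold (edgeR quasi-likelihood test, Benjamini-Hochberg adjusted over all 14807 genes, threshold 0.05). Tgfb2 rose 1.77-fold and Tgfbr1 rose 1.51-fold. Among all tested genes 21.1% passed in either direction (10.3% higher, 10.8% lower), so 2 of 10 members is a share near the background. The members had a median log2 fold change of 0.43 and 8 of 10 positive values, against a median of -0.03 over all tested genes. With the length trends described further on removed, the members' median was 0.21 to 0.28. For 3 members (Tgfb2, Tgfbr1 and Ltbp4) every anti-PD-1 value lay above every anti-IgG value. Of all tested genes 41.0% were free of overlap, 20.2% higher and 20.8% lower with anti-PD-1. Under upper quartile scaling 36.8% of the genes called were higher, against 48.9% under TMM, and 0 members passed, with adjusted p of 0.0581 for Tgfb2 and 0.0684 for Tgfbr1.

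**Figure D1:**
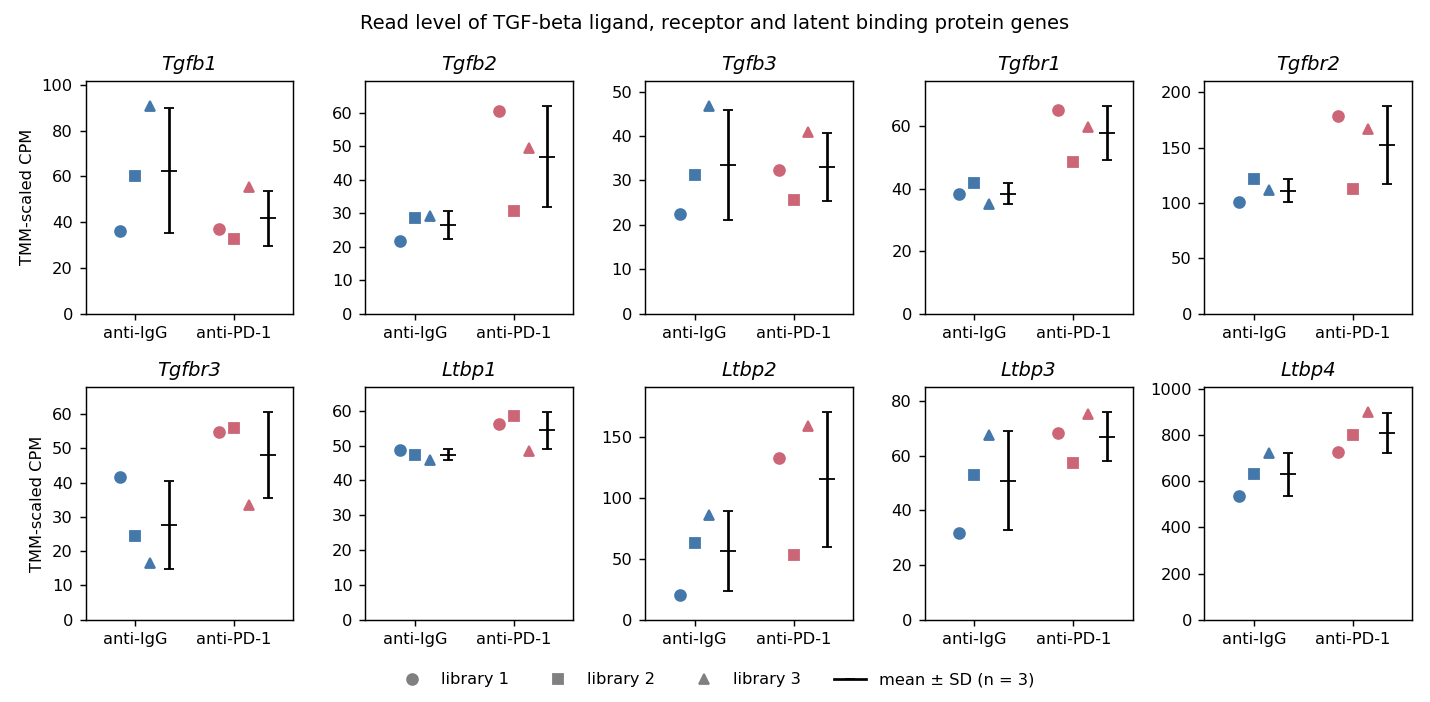
TMM-scaled CPM of each member (vertical axes, each starting at 0) in the 3 anti-IgG and 3 anti-PD-1 libraries, with the mean and SD of each group (n = 3) beside the points. The groups are apart for Tgfb2, Tgfbr1 and Ltbp4, and overlap for the other 7 genes.

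Among the ligands, Tgfb2 (chr1:186622792-186705989, minus strand) is the isoform best known for its part in heart development and in the change of endothelial cells to mesenchymal cells. It measured 21.6, 28.6 and 29.0 CPM in anti-IgG libraries 1, 2 and 3, and 60.6, 30.7 and 49.3 CPM in anti-PD-1 libraries 1, 2 and 3. The groups did not overlap, but anti-PD-1 library 2 lay just above the anti-IgG libraries, whereas anti-PD-1 library 1 was the highest of all. Means were 26.4 ± 4.16 and 46.9 ± 15.1 CPM (SD, n = 3), a log2 fold change of 0.83 (SE 0.25; adjusted p = 0.0364 by edgeR). The rise was past the threshold in 1 of the 6 fits that left out a library, that without anti-PD-1 library 2, and the adjusted p ranged from 0.0133 to 0.144 over these fits. The log2 fold change stayed between 0.61 and 1.08 in them. The call was also lost by limma-voom (adjusted p = 0.0527) and by the 3 limma-trend fits on FPKM (adjusted p = 0.0578 to 0.0645), in which Tgfbr1 was the 1 member called. With upper quartile scaling and the length corrections, Tgfb2 missed the threshold in 14 of 22 alternative fits, with a positive fold change in each.

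Tgfb1 (chr7:25687002-25705077, plus strand) encodes the isoform usually linked to fibrosis. It measured 36.3, 60.1 and 90.8 CPM in anti-IgG libraries 1, 2 and 3, and 36.9, 32.8 and 55.3 CPM in anti-PD-1 libraries 1, 2 and 3. The spread within the anti-IgG group was as wide as the distance between the groups, with anti-IgG library 1 at the level of the anti-PD-1 libraries. Means were 62.4 ± 27.3 and 41.69 ± 12.003 CPM, and the log2 fold change of -0.58 (SE 0.32) did not pass (edgeR adjusted p = 0.213). Without anti-IgG library 1 it was -0.85 with an adjusted p of 0.0386, and over the 6 fits that left out a library the adjusted p ranged up to 0.673.

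Tgfb3 (chr12:86056745-86079041, minus strand), the third isoform, measured 22.4, 31.2 and 46.8 CPM with anti-IgG and 32.5, 25.7 and 40.9 CPM with anti-PD-1. The anti-PD-1 values lay inside the anti-IgG range. The log2 fold change was -0.02 (SE 0.27; adjusted p = 0.968 by edgeR), and its sign differed between settings. The gene Ttll5 covers 5149 bp of the Tgfb3 locus on the opposite strand and had 164 to 326 reads. Whether counting used strand is not stated, so reads of the shared stretch cannot be assigned with certainty.

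Since Tgfb2 and Tgfb1 had fold changes of opposite sign, the make-up of the ligand pool was compared within each library. For this the deposited FPKM values were used, which divide the counts by gene length, and the share of each isoform in the sum of the 3 does not depend on how libraries were scaled. Tgfb2 made up 21.2%, 18.9% and 13.6% of ligand FPKM in anti-IgG libraries 1, 2 and 3, and 38.2%, 27.3% and 26.9% in anti-PD-1 libraries 1, 2 and 3. Every anti-PD-1 library had a larger Tgfb2 share than every anti-IgG library. Tgfb1 made up 41.0%, 45.7% and 48.9% in the anti-IgG group and 26.8%, 33.5% and 34.7% in the anti-PD-1 group, and these groups did not overlap either. The Tgfb3 share was 36.9 ± 1.31% and 37.5 ± 2.17%, with overlapping values. Accordingly the FPKM ratio of Tgfb2 to Tgfb1 was 0.279 to 0.518 with anti-IgG and 0.775 to 1.43 with anti-PD-1. That of Tgfb3 to Tgfb1 did not overlap either, with 0.768 to 0.921 and 1.10 to 1.31. Shares and ratios come from the same reads as the fold changes and are no separate evidence. The length trends described further on were not removed from these shares and ratios. With the coding and 3′ UTR length trend removed, the log2 fold changes were 0.57 for Tgfb2 and -0.0026 for Tgfb1, against 0.83 and -0.58 without correction. With GC content added to the trend they were 0.53 and 0.09.

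Summed ligand FPKM was 24.96 ± 8.99 in the anti-IgG group and 24.77 ± 6.23 in the anti-PD-1 group, a difference far smaller than the spread within either group. The shares depend on the length used. The authors' gene length of Tgfb1 is 5042 bp, whereas its longest coding transcript has 2175 bp, and for Tgfb2 the lengths are 5791 and 5116 bp. Per kb of the longest coding transcript, Tgfb1 made up 64.6 ± 3.80% of the ligands in the anti-IgG group and 50.2 ± 5.28% in the anti-PD-1 group, and Tgfb2 12.6 ± 3.07% and 24.1 ± 5.87%. For these 2 ligands the direction was the same and the groups again did not overlap, but Tgfb1 was then the most abundant ligand in all 6 libraries. The Tgfb3 share by this length was 22.8 ± 1.18% and 25.7 ± 0.75%, without overlap, unlike its share of FPKM. With 3 libraries against 3 an exact permutation test cannot go below 0.10, and none was run on these shares.

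**Figure D2:**
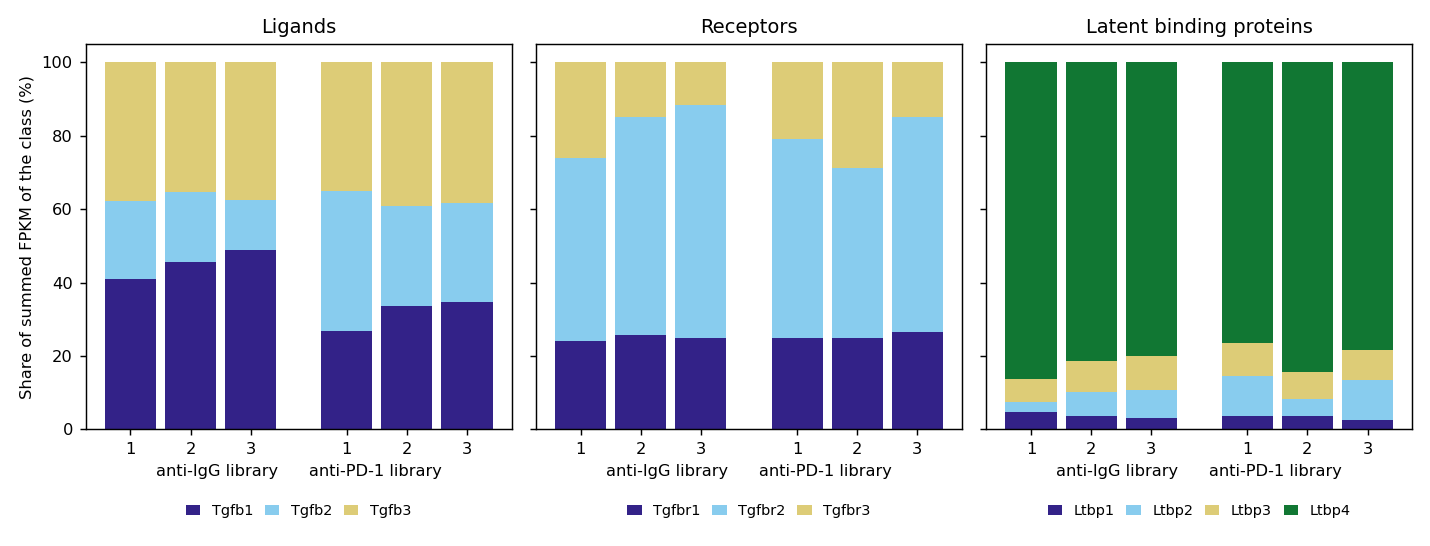
Share of each gene in the summed FPKM of its class (vertical axis, percent) for each anti-IgG and anti-PD-1 library; each bar adds up to 100%. In the ligand panel the Tgfb2 part is 13.6% to 21.2% with anti-IgG and 26.9% to 38.2% with anti-PD-1, while shares in the other panels overlap between the groups.

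All 3 receptors had a higher mean with anti-PD-1, and 1 of them passed the test. Tgfbr1 (chr4:47353222-47414931, plus strand), the type I receptor that carries the signal to SMAD2 and SMAD3, measured 38.4, 41.7 and 35.1 CPM in anti-IgG libraries 1, 2 and 3, and 65.3, 48.5 and 59.9 CPM in anti-PD-1 libraries 1, 2 and 3. The anti-IgG libraries were close together and all lay below the lowest anti-PD-1 library, which was again library 2. Means were 38.4 ± 3.31 and 57.9 ± 8.58 CPM, with a log2 fold change of 0.59 (SE 0.18; adjusted p = 0.0369 by edgeR). Leaving out 1 library at a time gave 0.51 to 0.73 with adjusted p from 0.0278 to 0.136, and only the fit without anti-PD-1 library 2 was past the threshold.

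Tgfbr2 (chr9:116084293-116175360, minus strand), the ligand-binding type II receptor, measured 100.4, 121.3 and 112.0 CPM with anti-IgG and 178.4, 112.7 and 166.7 CPM with anti-PD-1. Anti-PD-1 libraries 1 and 3 were above all anti-IgG libraries, and library 2 stood among them. The log2 fold change was 0.46 (SE 0.21; adjusted p = 0.137 by edgeR), and without anti-PD-1 library 2 it was 0.65 with an adjusted p of 0.0458, the lowest of the 6 fits without a library, in which it ranged up to 0.368.

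Tgfbr3 (chr5:107106570-107289629, minus strand) encodes betaglycan, a co-receptor without a kinase that presents ligands, TGF-beta 2 above all, to the type II receptor. It measured 41.6, 24.3 and 16.6 CPM in anti-IgG libraries 1, 2 and 3, and 54.6, 55.8 and 33.5 CPM in anti-PD-1 libraries 1, 2 and 3. Only anti-IgG library 1 reached into the anti-PD-1 range. The log2 fold change was 0.80 (SE 0.33; adjusted p = 0.105 by edgeR). Without anti-IgG library 1 it was 1.23 with an adjusted p of 0.0118, and DESeq2 gave 0.84 with an adjusted p of 0.0370. Omitting other libraries gave adjusted p of up to 0.290. The order of libraries for Tgfbr3 was unlike that of most members and the same as that of Ltbp1. Anti-IgG library 1, which was the lowest of its group in 7 of the 10 members, was the highest of its group for these 2 genes.

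The share of each receptor within the class was then compared. Tgfbr1 made up 24.8 ± 0.81% of receptor FPKM in the anti-IgG group and 25.4 ± 0.87% in the anti-PD-1 group, Tgfbr2 57.6 ± 6.85% and 53.1 ± 6.30%, and Tgfbr3 17.5 ± 7.45% and 21.4 ± 6.98%. For each of these shares the values of the groups overlapped. Summed receptor FPKM was 20.1 to 23.0 in the anti-IgG libraries and 27.6 to 38.2 in the anti-PD-1 libraries, without overlap. Such sums, unlike the shares, depend on how the authors scaled FPKM between libraries, and the sources used here do not state that scaling. The length trends described further on were not removed from the receptor sum. With the coding and 3′ UTR length trend removed, the log2 fold changes were 0.18 for Tgfbr1, -0.09 for Tgfbr2 and 0.31 for Tgfbr3.

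None of the 4 latent binding proteins passed the test, and all 4 had a higher mean with anti-PD-1. Ltbp4 (chr7:27305136-27337692, minus strand), which takes part in elastic fibre assembly and binds latent TGF-beta 1, was by far the most abundant member. It measured 534.5, 630.5 and 724.2 CPM in anti-IgG libraries 1, 2 and 3, and 726.7, 802.0 and 899.7 CPM in anti-PD-1 libraries 1, 2 and 3. The groups did not overlap, although the highest anti-IgG library and the lowest anti-PD-1 library were next to each other. The log2 fold change was 0.36 (SE 0.21; adjusted p = 0.238 by edgeR).

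Ltbp2 (chr12:84783212-84876532, minus strand) stands apart in its family because its product does not bind latent TGF-beta and is known as a microfibril component and a marker of stretched or failing myocardium. It measured 20.7, 63.2 and 85.8 CPM with anti-IgG and 133.0, 53.3 and 159.2 CPM with anti-PD-1. It had the widest spread within the groups of all members, with a coefficient of variation of 58.4% and 47.9%. Its log2 fold change of 1.03, with an SE of 0.57, did not pass (edgeR adjusted p = 0.238), and leaving out 1 library moved it from 0.63, without anti-IgG library 1, to 1.48, without anti-IgG library 3. With all libraries it was the largest of the members, but Tgfbr3 exceeded it when anti-IgG library 1 was left out (1.23) and when anti-PD-1 library 3 was (1.01 against 0.73). Of the activated fibroblast markers Postn, Cthrc1, Comp, Cilp and Acta2, all 5 detected, the summed level followed the same order of libraries as Ltbp2 within each group, with 409, 1232 and 1304 CPM in anti-IgG libraries 1, 2 and 3, and 1328, 779 and 1833 CPM in anti-PD-1 libraries 1, 2 and 3. Of the single markers, Cthrc1, Comp and Cilp followed that order in both groups. Postn, the largest part of the sum (means of 567 and 849 CPM), had more reads in anti-IgG library 2 than in library 3 (14527 and 14018). Acta2 was lowest in anti-PD-1 library 1, with 1663 reads against 2336 and 3291 in libraries 2 and 3. The part of these cells in the Ltbp2 values was not tested.

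Ltbp3 (chr19:5740904-5758532, plus strand) and Ltbp1 (chr17:75005568-75392512, plus strand) encode the other binding proteins that hold latent TGF-beta. Ltbp3 ranged from 31.7 to 67.7 CPM with anti-IgG and from 57.3 to 75.2 CPM with anti-PD-1, a log2 fold change of 0.40 (SE 0.25; adjusted p = 0.277 by edgeR). Ltbp1 was the steadiest member, with 45.9 to 48.9 CPM against 48.4 to 58.4 CPM and coefficients of variation of 3.16% and 9.66%. Its log2 fold change was 0.20 (SE 0.16; adjusted p = 0.400 by edgeR). Within the class, Ltbp4 made up 82.5 ± 3.21% of the FPKM in the anti-IgG group and 79.7 ± 4.13% in the anti-PD-1 group, and the shares of all 4 genes overlapped between the groups. The summed FPKM of the class was 90.0 to 130.6 with anti-IgG and 136.6 to 170.2 with anti-PD-1, without overlap and with the same dependence on scaling as the receptor sum. The length trends were not removed from it either.

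The levels per length ran from Ltbp4, with a mean of 90.7 FPKM in the anti-IgG group, to Tgfbr3 with 3.92 FPKM. Between them came Tgfbr2 (12.6 FPKM), Tgfb1 (11.5 FPKM), Tgfb3 (9.21 FPKM), Ltbp3 (9.10 FPKM), Ltbp2 (6.42 FPKM), Tgfbr1 (5.46 FPKM), Tgfb2 (4.24 FPKM) and Ltbp1 (4.21 FPKM). Neighbours in this order had overlapping values, except Ltbp4 above Tgfbr2 and Tgfbr1 above Tgfb2. In the anti-PD-1 group the order was Ltbp4 (118.5 FPKM), Tgfbr2 (17.7 FPKM), Ltbp2 (13.4 FPKM), Ltbp3 (12.2 FPKM), Tgfb3 (9.25 FPKM), Tgfbr1 (8.39 FPKM), Tgfb1 (7.84 FPKM), Tgfb2 (7.68 FPKM), Tgfbr3 (6.92 FPKM) and Ltbp1 (4.90 FPKM). There only Ltbp4 stood clear of its neighbour. Tgfb1 moved from the third to the seventh place, and Ltbp2 from the sixth to the third. These places depend on the length used: per kb of the longest coding transcript Tgfb1 was the second in both groups, and Ltbp2 the sixth and then the fourth.

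Several members were low or high in the same libraries of a group. Anti-IgG library 1 was the lowest of its group in 7 of 10 members and anti-PD-1 library 2 the lowest of its group in 7, while anti-IgG library 3 was the highest of its group in 6 and anti-PD-1 library 3 in 5. The summed level of the 6 fibroblast markers, all detected, was 1270, 1771 and 1579 CPM in anti-IgG libraries 1, 2 and 3, and 2008, 1336 and 2073 CPM in anti-PD-1 libraries 1, 2 and 3. This sum was lowest in the same library of each group that was lowest for most members. Its largest part was Dcn (means of 926 and 968 CPM), and Dcn, Col1a1 and Dpt were each lowest in those libraries. The other markers differed in 1 group: Pdgfra (1114 reads) and Lum (2851 reads) were lowest in anti-IgG library 3, and Tcf21 (139 reads) in anti-PD-1 library 3. Marker sums of several other cell types overlapped between the groups, with mural levels of 1974 to 2484 and 2341 to 2640 CPM, endothelial levels of 1433 to 1516 and 1159 to 1449 CPM, and macrophage levels of 297 to 547 and 326 to 352 CPM. Single markers within these lists differed: mural Kcnj8 (-0.64), endothelial Egfl7 (-1.90) and macrophage C1qa (-1.56) were lower with anti-PD-1, and macrophage Adgre1 (0.97) was higher (edgeR adjusted p = 0.0242, 0.00224, 0.0373 and 0.0185). The 5 platelet markers, of cells rich in TGF-beta 1, summed to 19.3 to 30.3 CPM with anti-IgG and 14.0 to 15.7 CPM with anti-PD-1, without overlap. That lower sum was carried by Pf4 (20.8 ± 4.57 to 8.91 ± 2.21 CPM, -1.22 on the log2 scale, edgeR adjusted p = 0.0105). Of the other tested platelet markers, Gp1ba (0.86, higher in all 3 anti-PD-1 libraries), Ppbp (0.56) and Itga2b (-0.30) did not pass, and the median of the 4 tested was 0.13. Marker sums of T cells (3.18 to 4.47 and 1.5004 to 2.1437 CPM), B cells (3.30 to 6.61 and 0.75 to 1.63 CPM) and Schwann cells (8.11 to 12.3 and 4.39 to 7.16 CPM) were also lower with anti-PD-1 without overlap. All markers of these lists had reads in at least 1 library. The filter on low counts was passed by 2 of 5 T cell, 4 of 4 B cell and 3 of 4 Schwann cell markers, so these 3 sums rest on few reads. Of all tested genes 20.8% were lower with anti-PD-1 without overlap. The part of any of these cells in the members' values was not tested.

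Fold changes in this comparison followed transcript structure over all genes, and the members span much of that range. Across the 13050 tested coding genes, Spearman's rho of the log2 fold change was 0.48 with 3′ UTR length, 0.44 with coding length and -0.27 with GC content. These are correlations across genes of the same 6 libraries and are given as a description. Coding genes with the shortest 3′ UTRs, up to 557 bp, had a median log2 fold change of -0.48, and 2.78% were called higher and 25.8% lower. Those with the longest, from 2427 bp, had a median of 0.38, and 24.3% were called higher and 2.64% lower. Tgfb1 has a 3′ UTR of 135 bp and belongs to the genes with the shortest 3′ UTRs, as do Ltbp4 with 260 bp and Ltbp3 with 440 bp. Tgfb2 (2656 bp), Tgfbr3 (3069 bp), Tgfbr1 (4154 bp) and Tgfbr2 (6085 bp) all belong to those with the longest. Ltbp3 and Ltbp4 had positive fold changes of 0.40 and 0.36, against the median of -0.48 of the genes with such short 3′ UTRs. That median leaves out coding length, which is 3759 bp for Ltbp3 and 4998 bp for Ltbp4. With the trend on both lengths removed, the 2 genes stood at 0.37 and 0.34, so the distance from -0.48 is not their distance from the joint trend. Over the 10 members rho with 3′ UTR length was 0.58.

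**Figure D3:**
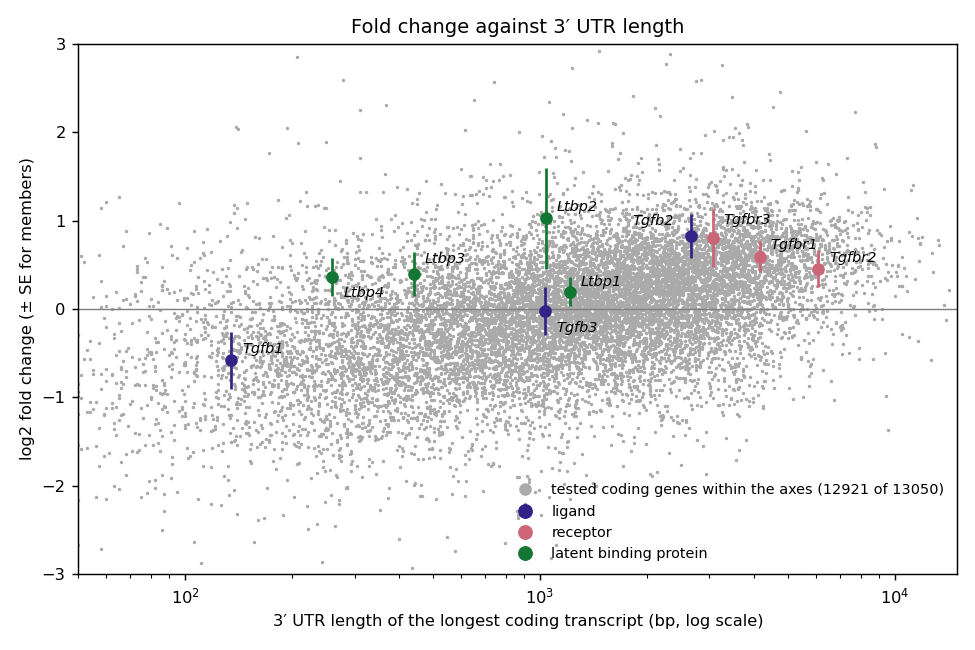
Log2 fold change of anti-PD-1 against anti-IgG (vertical axis) against 3′ UTR length of the longest coding transcript (horizontal axis, bp, log scale). Grey dots are 12921 of the 13050 tested coding genes, and coloured points are the 10 members with their SE; the 3 receptors and Tgfb2 lie at the long end and Tgfb1 at the short end.

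When each library's trend with the authors' gene length was removed, 10.3% of all tested genes passed in either direction and 0 of the 10 members did (edgeR). Tgfb2 then had a log2 fold change of 0.70 (SE 0.24, adjusted p = 0.0839) and Tgfbr1 of 0.41 (SE 0.17, adjusted p = 0.131), both in the same direction as before. Removing the trend with coding and 3′ UTR lengths, a correction chosen after seeing the data, left 5.63% of tested genes and again 0 members past the threshold. With that correction Tgfb2 stood at 0.57 (SE 0.23, adjusted p = 0.156), whereas Tgfbr1 stood at 0.18 (SE 0.16, adjusted p = 0.529). The receptors Tgfbr2 and Tgfbr3 came to -0.09 and 0.31, and Tgfb1 came to -0.00 (SE 0.26, adjusted p = 0.997). Ltbp4 and Ltbp3 stood at 0.34 and 0.37, close to their values without correction, although Ltbp4 was at 0.18 with the gene length trend removed, and Ltbp1 turned negative at -0.25. With GC content added to the trend, 6.80% of tested genes and 0 members passed.

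**Figure D4:**
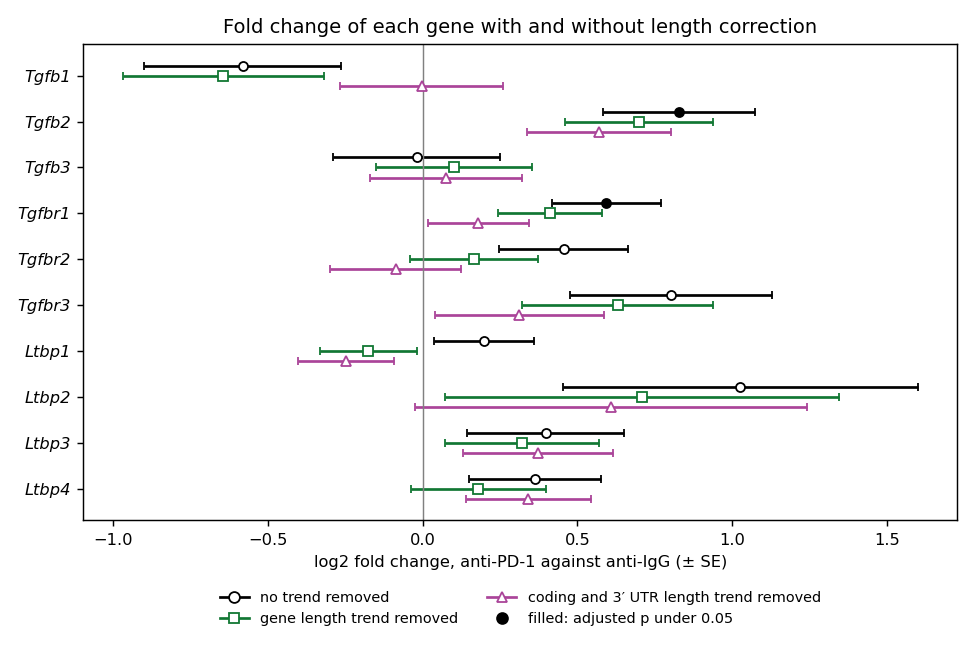
Log2 fold change of each member (points, with SE as bars) without correction, with the gene length trend removed and with the coding and 3′ UTR length trend removed; filled points have an adjusted p under 0.05. Tgfb2 stays between 0.57 and 0.83, while Tgfb1 moves from -0.58 to -0.00 and Tgfbr1 from 0.59 to 0.18.

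The bases upstream of the start sites are shown for the ligand and the receptor called higher in the main analysis, and for Tgfb1, whose share of the ligands was lower. Each window holds the 250 bases before the RefSeq start of the gene in GRCm38.p6 (mm10), on the strand of the gene: Tgfb2 at chr1:186705990-186706239 (minus), Tgfb1 at chr7:25686752-25687001 (plus) and Tgfbr1 at chr4:47352972-47353221 (plus). Capitals mark the TATA box letters TATAAA, the GC box letters GGGCGG, the E-box letters CACGTG and the core TGACG of a cyclic AMP response element, on either strand.
Tgfb2: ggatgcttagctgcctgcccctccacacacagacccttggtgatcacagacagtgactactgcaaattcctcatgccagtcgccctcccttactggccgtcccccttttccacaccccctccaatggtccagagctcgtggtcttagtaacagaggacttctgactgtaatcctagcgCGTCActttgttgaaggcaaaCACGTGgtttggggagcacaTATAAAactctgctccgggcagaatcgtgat
Tgfb1: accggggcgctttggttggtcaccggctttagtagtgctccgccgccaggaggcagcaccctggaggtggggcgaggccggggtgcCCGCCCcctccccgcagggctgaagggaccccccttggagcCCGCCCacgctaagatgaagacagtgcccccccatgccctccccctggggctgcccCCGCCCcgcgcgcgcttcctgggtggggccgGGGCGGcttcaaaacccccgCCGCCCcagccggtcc
Tgfbr1: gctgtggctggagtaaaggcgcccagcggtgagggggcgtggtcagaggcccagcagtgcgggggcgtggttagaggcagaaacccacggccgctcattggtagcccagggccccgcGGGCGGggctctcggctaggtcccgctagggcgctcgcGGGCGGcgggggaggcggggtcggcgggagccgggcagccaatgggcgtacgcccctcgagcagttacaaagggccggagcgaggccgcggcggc
The Tgfb2 window held 1 TATA box, 1 such core and 1 E-box, 0 GC boxes and 53.6% GC. The Tgfb1 window held 5 GC boxes and 0 TATA boxes at 75.2% GC, and the Tgfbr1 window held 2 GC boxes and 0 TATA boxes at 74.8% GC. Among 32851 windows of this length in the RefSeq table, 12.4% held TATAAA, 32.7% GGGCGG, 17.8% TGACG and 6.02% CACGTG on either strand. The full element TGACGTCA, which contains the core, was in 1.55% of windows and in that of Ltbp1 among the members. The tandem SMAD motif AGACAGAC was in 1.55% of windows and in 0 of the 8 members with a window. A match describes letters only and is no evidence of binding.

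The 2 genes whose levels most resembled those of Tgfb2 over the 6 libraries, of 8801 compared, were Sulf1 and Dse, with root mean square differences of 0.09 and 0.10 between log2 CPM centred on each gene's mean. Those nearest to Tgfbr1 were Twsg1 and Cyb561, with differences of 0.04 each. These are descriptions over 6 libraries.

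Other genes of the pathway were taken from 7 lists, which share a few genes and together held 123 tested genes. Of these, 22 rose and 3 fell with anti-PD-1 (edgeR adjusted p under 0.05). The background is the 10.3% of all tested genes that rose and the 10.8% that fell.

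Genes that store and activate the latent ligand came first. Of 27 listed, 26 were tested, 5 rose and 0 fell. Their median on the log2 scale was 0.39, or 0.15 without anti-PD-1 library 3. The genes that rose included the alpha-v integrin chain Itgav (42.1 ± 2.32 to 76.6 ± 21.2 CPM, 0.87 on the log2 scale, SE 0.22, adjusted p = 0.0201 by edgeR) and its partners Itgb3 (1.31, adjusted p = 0.0155) and Itgb8 (1.16, adjusted p = 0.0416), which free TGF-beta from its latent complex. Itgb3 had 64 to 111 reads with anti-IgG and 131 to 289 with anti-PD-1, and Itgb8 77 to 91 and 88 to 278. Itgb8 missed the threshold in 14 of 21 alternative fits, Itgav in 8 of 22 and Itgb3 in 4 of 22. Also higher were Furin, the protease that cuts the TGF-beta precursor (0.96, adjusted p = 0.0276), and Fbn1, which encodes the fibrillin that latent binding proteins dock to (1.30, adjusted p = 0.0189). The integrin chain Itgb5 (0.38), the activator thrombospondin Thbs1 (0.66) and Nrros (-0.56), which tethers latent TGF-beta on myeloid cells, did not pass. None of the 4 tested co-receptors and pseudoreceptors passed, and 21.1% of all tested genes did. Among them the endothelial co-receptor Eng had a log2 fold change of -0.08, its partner receptor Acvrl1 of 0.14 and the decoy receptor Bambi of -0.06.

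The genes that carry the signal from receptor to nucleus held the largest number of calls. Of 26 tested, 13 rose (50.0%) and 0 fell. The median on the log2 scale was 0.53, or 0.29 with the gene length trend removed and 0.14 with the coding and 3′ UTR length trend removed. The shared mediator Smad4 went from 46.7 ± 8.79 to 92.3 ± 7.75 CPM (0.98 on the log2 scale, SE 0.19, adjusted p = 0.00865 by edgeR). The receptor-activated Smad2 (0.42) and Smad3 (0.33) did not pass, nor did the inhibitory Smad7 (-0.10). Among the genes that rose were inhibitors of SMAD transcription, Ski (0.76, adjusted p = 0.0144) and Skil (1.09, adjusted p = 0.00975), and Smurf2 (0.62, adjusted p = 0.0284), a ubiquitin ligase that marks the receptors for removal. Genes with an activating role also rose. They were Usp9x (2.06, adjusted p = 0.00287), which removes ubiquitin from SMAD4, the acetyltransferase Ep300 (1.00), the receptor anchor Zfyve9 (0.74), and Traf6 (0.93) and Tab2 (0.70) of the branch that runs through the kinase TAK1. Tab1 of the same branch went the other way, from 19.6 ± 0.65 to 14.3 ± 0.55 CPM (-0.46), and did not pass (edgeR adjusted p = 0.0865). Usp9x went from 55.2 ± 21.3 to 229.6 ± 26.5 CPM and was past the threshold in all 22 alternative fits.

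These counts depended on single libraries and on length, as did the calls over all genes. Without anti-IgG library 2 the signalling list had 2 genes called higher, without anti-PD-1 library 1 it had 4 and without anti-IgG library 3 it had 6. The list of storage and activation genes had 0 without anti-IgG library 2, likewise 0 without anti-PD-1 library 1, 2 without anti-PD-1 library 3, and 3 without anti-IgG library 1 or 3. With the gene length trend removed 4 signalling genes rose (Smad4, Ski, Skil and Usp9x), and with the coding and 3′ UTR length trend removed 2 rose (Smad4 and Usp9x). Of the storage and activation genes 1 rose (Itgb3) with the gene length trend removed, and 0 with the coding and 3′ UTR length trend removed. Over all genes 1525 of 14807 rose in the main analysis, and 766 and 434 with these trends removed. Without anti-IgG library 2 it was 216 of 15105, and without anti-IgG library 3 735 of 15230. Without anti-PD-1 library 1 it was 496 of 15243.

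Receptors and SMADs of the neighbouring BMP and activin branches showed 3 rises and 0 falls among 9 tested genes. They were Bmpr1a (73.1 ± 15.2 to 166.2 ± 23.1 CPM, 1.18 on the log2 scale, adjusted p = 0.00694 by edgeR), Bmpr2 (1.06, adjusted p = 0.0152) and Smad5 (0.81, adjusted p = 0.0184). The activin receptor Acvr2a had a log2 fold change of 0.58 and did not pass. Bmpr1a was past the threshold in all 22 alternative fits, as Usp9x was, and was the 1 gene of this list called without anti-IgG library 2 or 3, without anti-PD-1 library 1 and in each of the 4 fits with a length trend removed. With the gene length trend removed Bmpr2 and Smad5 had adjusted p of 0.0861 and 0.0649 (edgeR), and with the coding and 3′ UTR length trend removed 0.316 and 0.160. Of the other ligands of the superfamily and their antagonists, 19 were tested, and 0 rose and 1 fell, the inhibin subunit Inha (-1.41, adjusted p = 0.0350), at 37 to 63 reads with anti-IgG and 15 to 25 with anti-PD-1. Of the 6 fits that left out a library, Inha was called in the 1 without anti-IgG library 3, and it was not called with the gene length trend removed (-0.85, edgeR adjusted p = 0.192) or in the other fits with a length trend removed. The activin subunit Inhba (0.69) and Bmp4 (-0.42) did not pass. The list median was -0.32, but it was near 0 in several settings: -0.001 without anti-IgG library 3, -0.07 without anti-IgG library 1, 0.01 with a minimum of 1 CPM, -0.09 by limma-voom and -0.0031 with the gene length trend removed.

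A further list held genes widely used as readouts of TGF-beta signalling. Of 26 tested, 2 rose and 1 fell. The list median was 0.53 on the log2 scale, and it ranged from 0.17 when anti-IgG library 1 was left out to 0.71 when anti-IgG library 3 was, with 0.24 in the absence of anti-PD-1 library 3. It was 0.28 with the coding and 3′ UTR length trend removed, where 0 genes of the list rose and 1 fell, and without anti-IgG library 2 likewise 0 rose and 1 fell. Among those that rose was Skil, described above. The gene that fell was Id1, a target of the BMP branch that TGF-beta can repress or induce depending on the cell (55.6 ± 12.6 to 19.4 ± 1.99 CPM, -1.52, adjusted p = 0.00331), which was past the threshold in all 22 alternative fits. Several matrix genes had positive values that did not pass, with log2 fold changes of 0.58 for Ccn2 (listed as Ctgf), 0.58 for Postn, 0.76 for Col1a1, 0.53 for Col3a1 and 0.76 for Fn1. Others were negative and did not pass either: Eln (-0.17), Tgfbi (-0.05), Ccn1 (listed as Cyr61, -0.18) and Timp1 (-0.23). Of the 26 tested genes of the list, 18 had positive values. The feedback regulator Pmepa1 stood at 0.43. Acta2, the myofibroblast and smooth muscle actin, stood at -0.74 (adjusted p = 0.0821). Among the 20 elastic fibre and microfibril partners of the latent binding proteins, Fbn1 rose and Adamts10, a protease-family protein of microfibrils, fell (-0.84, adjusted p = 0.0180), with a list median of 0.03, or -0.16 to 0.23 with 1 library left out. Both were called when anti-IgG library 1 was left out and when anti-PD-1 library 2 was, and Adamts10 also without anti-IgG library 3.

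**Figure D5:**
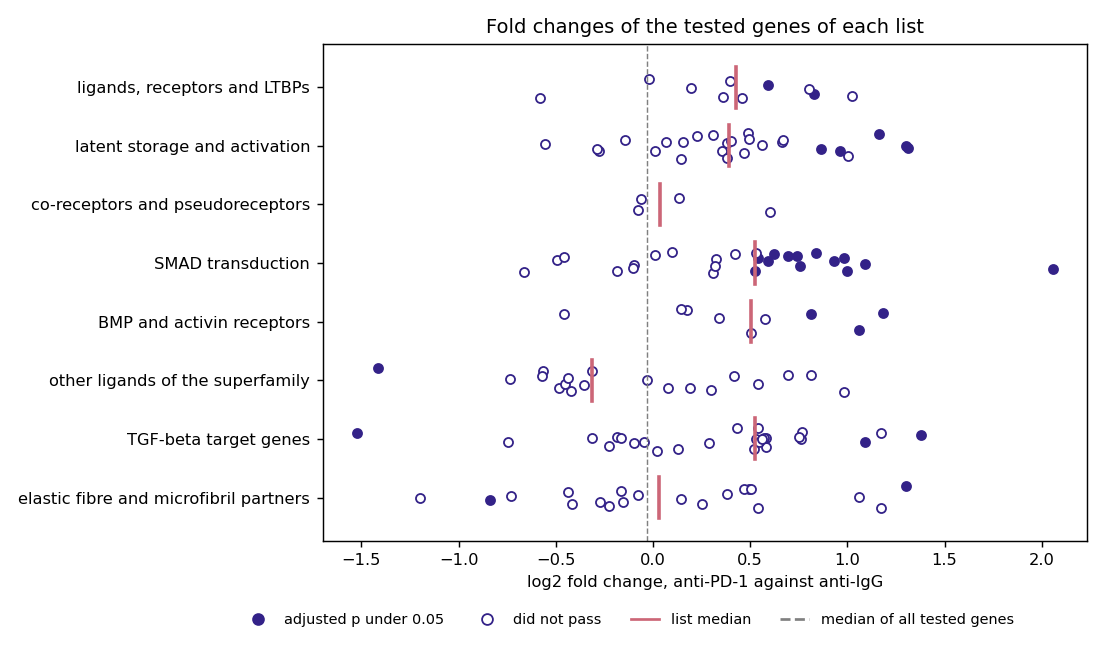
Log2 fold change of every tested gene of the 10 members and of each pathway list (horizontal axis; rows are lists), with filled points for an adjusted p under 0.05, a bar at the list median and a dashed line at the median of all tested genes (-0.03). The signalling list has 13 filled points to the right of 0, while the target genes have 2 to the right and 1 to the left.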

How the data were processed

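Left ventricular mRNA of 6 libraries was analysed, 3 anti-IgG and 3 anti-PD-1. The authors deposited raw read counts per gene, with a gene length in bp, and FPKM values per gene. The submitters' processing notes name featureCounts and mm10, without versions; the aligner, the strand setting and the scaling of the FPKM are not given in the sources used here. Per the labels' protocols, mRNA was fragmented and made into libraries with a NEBNext Ultra kit. Total counts were 18063344 to 21093163 per library, and libraries of a group differed by a chi-square per degree of freedom of 42.6 to 68.5, far above counting noise.

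Counts were filtered with filterByExpr, scaled by TMM and tested with edgeR 4.0.16 (glmQLFit with robust=TRUE, glmQLFTest) in R 4.3.3 over all 14807 genes that passed, 2-sided; p-values were adjusted after Benjamini and Hochberg and read at 0.05. SEs are the log2 fold change over the root of F. The procedure was tested on simulated counts with known fold changes and no length trend. The length offset was tested on counts with a simulated length trend. Neither simulation measures how many calls in the real data are false. Shares and level orders used the deposited FPKM with no test.

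The members and the gene lists were chosen with earlier results of these data known. Named were all members, a fixed set of pathway genes, up to 8 called genes per list by smallest p, and for each called member the 2 genes of mean log2 CPM of at least 3 with the most similar levels. Results of a few genes that this rule names or that adjoin members are not reported here.

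Alternatives were RLE and upper quartile scaling, no filter or a minimum of 1 CPM in 3 or more libraries, DESeq2 1.42.0 and, with limma 3.58.1, limma-voom and limma-trend on log2 FPKM with a pseudocount of 1 or 0.1, robust=FALSE, a replicate block, a fit without haemoglobin and mitochondrially encoded genes, each library left out, and the gene length trend removed (a spline of 5 degrees of freedom per library, on log2 CPM with a prior count of 2, as an offset). Added after seeing the data were the trend on coding and 3′ UTR lengths of the longest GENCODE M21 transcript, the same with GC content, and levels per kb of that transcript. Such lengths were available for 88.1% of the tested genes. Promoter windows are from RefSeq (GRCm38.p6), where 8 of 10 members matched; Tgfb3 and Tgfbr3 did not. Ligand coding stretches are from GENCODE M21, aligned with Biopython 1.88.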

Additional observations from a re-analysis of the deposited data

How the results depend on the processing

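Of the 10 members, 2 were called in the main analysis; 4 were called without a count filter (Tgfbr3 higher and Tgfb1 lower in addition), 1 (Tgfbr1) each by limma-voom and by limma-trend on log2(FPKM + 1), with or without a filter on FPKM, or on log2(FPKM + 0.1), and 0 under upper quartile scaling and under each of the 4 fits with a length trend removed (gene length, gene length with the replicate block, coding and 3′ UTR lengths, and these with GC content). Leaving out 1 library gave 0 to 3 members, with 0 when the one omitted was library 2 or 3 of the anti-IgG group or library 1 or 3 of the anti-PD-1 group. Over all genes 3118 were called, 1526 with the gene length trend removed, 1466 with the replicate block as well, 834 with the coding and 3′ UTR length trend removed, 1007 with GC content added, and 532 to 3646 with 1 library left out: omitting anti-IgG library 2 gave 532 and library 3 gave 1564, and omitting anti-PD-1 library 1 gave 969 and library 3 gave 1766. Of the 123 pathway genes 25 were called, then 8, 10, 5 and 7 under the same 4 length fits and 4 to 28 with 1 library left out (omitting anti-IgG library 2 or 3 gave 4 or 15, and omitting anti-PD-1 library 1 or 3 gave 7 or 15). The Tgfb2 share per kb of coding transcript was 12.6% and 24.1%, against 17.9% and 30.8% of FPKM; leaving out a library gave 16.3% to 20.1% with anti-IgG and 27.1% to 32.8% with anti-PD-1. The cause of these changes was not tested.

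Some log2 fold changes changed sign, among them values of -0.58 for Tgfb1, 0.46 for Tgfbr2 and 0.66 for Thbs1. That of Tgfb3, -0.02, was 0.0043 under RLE, 0.0192 by DESeq2, 0.0203 by limma-voom, 0.0168 with the replicate block, 0.0354 by limma-trend on log2(FPKM + 1), with or without a filter, 0.042 at a pseudocount of 0.1, 0.0069 without haemoglobin and mitochondrially encoded genes, 0.10, 0.13, 0.0754 and 0.13 under the 4 length fits, and -0.24 to 0.31 with 1 library left out. With the coding and 3′ UTR length trend removed, and then with GC content added, Tgfbr2 was -0.0876 and -0.0365, Ltbp1 -0.25 and -0.21 and Smad2 -0.0311 and -0.0408. Ltbp1 was also negative with the gene length trend removed (-0.17) and with the block as well (-0.18). Tgfb1 was 0.0911 with GC content added, and with lengths alone Acvrl1 was -0.033 and Smad3 -0.0095. Bambi was 0.0056 and 0.0164 by limma-trend at pseudocounts of 1 and 0.1. With 1 library left out, Bambi, Eng and Thbs1 had ranges of -0.24 to 0.28, -0.20 to 0.0457 and -0.0645 to 1.15.

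The replicate numbers were taken as names, since the labels do not say that they pair samples. The deviations of libraries with the same number correlated at 0.12, -0.14 and 0.21, which at 3 libraries a group cannot decide whether the numbers pair samples. With the replicate number as a block 3 members passed, Tgfbr3 in addition (log2 fold change 0.87, edgeR adjusted p = 0.0129), while Tgfb2 (0.79) and Tgfbr1 (0.59) had adjusted p of 0.0448 and 0.0447. Not every library correlated best with its own number. At 3 libraries a group, and at 331 reads or more per member and library, the spread between libraries limits these comparisons more than counting error does.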
